A study of Rattus norvegicus with 8 samples.

Results

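The genes described here are those of the Myc, Max and Mxd network of transcription factors, taken from the authors' FPKM table by their gene symbols (Myc, Mycn, Mycl, Max, Mlx, Mxd1, Mxi1, Mxd3, Mxd4 and Mnt). Of these 10 symbols, 9 matched a row among the 32883 rows of the table, and Mxd3 was not analysed here. All 9 averaged 1 FPKM or more and stood among the 11263 genes tested. The list was chosen by gene family, with male and female results of these same libraries known, among them the lower Myc of male cultures, and so in part selected on the measured difference of Myc between the sexes. Differences between the sexes and their calls are therefore descriptions of these 8 libraries and are no independent evidence.

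The study compared primary oligodendrocyte precursor cells, or OPCs, which divide and give rise to the myelin-forming cells, from male (4 libraries) and female (4 libraries) Sprague Dawley rats of 1 to 2 days of age. Both groups were cerebral cortex cells grown as mixed glia with 20% serum, collected as the fraction that does not adhere, and kept for 4 to 5 days with PDGF and FGF, at 10 ng/ml each, and the supplement B27 at 2%. No genotype, transgene or drug separates the groups, and sex is the factor that the labels give. Whether the libraries of a sex stem from different litters is not in the labels, and p-values therefore measure only a spread between libraries that may be technical.

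The Myc proteins (Myc, N-Myc and L-Myc) are transcription factors with a basic helix-loop-helix leucine zipper that bind DNA only as dimers with Max. Myc-Max dimers bind the E-box CACGTG and raise the expression of genes of growth, ribosome assembly, metabolism and cell division. The Mxd proteins, Mxi1 and Mnt compete for Max, bind the same sites and recruit the Sin3 corepressors and histone deacetylases, and Mlx is the partner of the glucose-sensing factors MondoA and ChREBP. Growth factors such as PDGF induce Myc in many cell types, and some Mxd genes, such as Mxd1, are known for coming on as cells leave division and differentiate.

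The libraries held RNA of the OPC markers Pdgfra and Sox10, and markers of other cell types are given further below. Pdgfra ranged from 215 to 239 FPKM in male and from 273 to 340 FPKM in female libraries, and Sox10 from 167 to 222 and from 233 to 259 FPKM in male and female libraries. The Y-linked gene Eif2s3y was at 62.7 to 77.9 FPKM in the male libraries and was listed at 0 in all 4 female ones. Absolute depth is unknown. Steps between low values gave depths relative to male 1 of 0.553 to 0.768 in the other male libraries and of 0.303 to 0.981 in the female ones. Male 1 and female 3 shared part of their deviation from their groups (r = 0.34 across 8390 genes, and genes are not replicates), and results are also given without both.

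Max was the highest member and Mycl the lowest. FPKM divides by transcript length, so levels of different genes can be set side by side, but only roughly. The aligner, quantifier and annotation behind the values are not given. Over all 8 libraries Max averaged 80.1 ± 7.28 FPKM (SD, n = 8), which is higher than 89.3% of tested genes. Myc followed at 64.8 ± 12.9 FPKM and Mxd4 at 58.7 ± 11.7 FPKM. These 3 formed a group whose ranges overlapped. Max was above Myc in 7 of 8 libraries and Myc above Mxd4 in 6 of 8. The next step down was clear of that group: Mxd4 was above Mlx in every library and their ranges did not touch. Mlx averaged 23.0 ± 2.47 FPKM and Mxi1 19.9 ± 3.42 FPKM, with Mlx higher in 7 of 8 libraries and overlapping ranges. Below another gap came Mycn at 8.58 ± 1.82 FPKM, Mxd1 at 6.33 ± 1.501 FPKM, Mnt at 5.22 ± 0.576 FPKM and Mycl at 3.93 ± 1.06 FPKM. Neighbours in this last group overlapped in range. Mxd1 lay above Mnt in 2 of 4 male libraries and in 4 of 4 female ones.

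**Figure D1:**
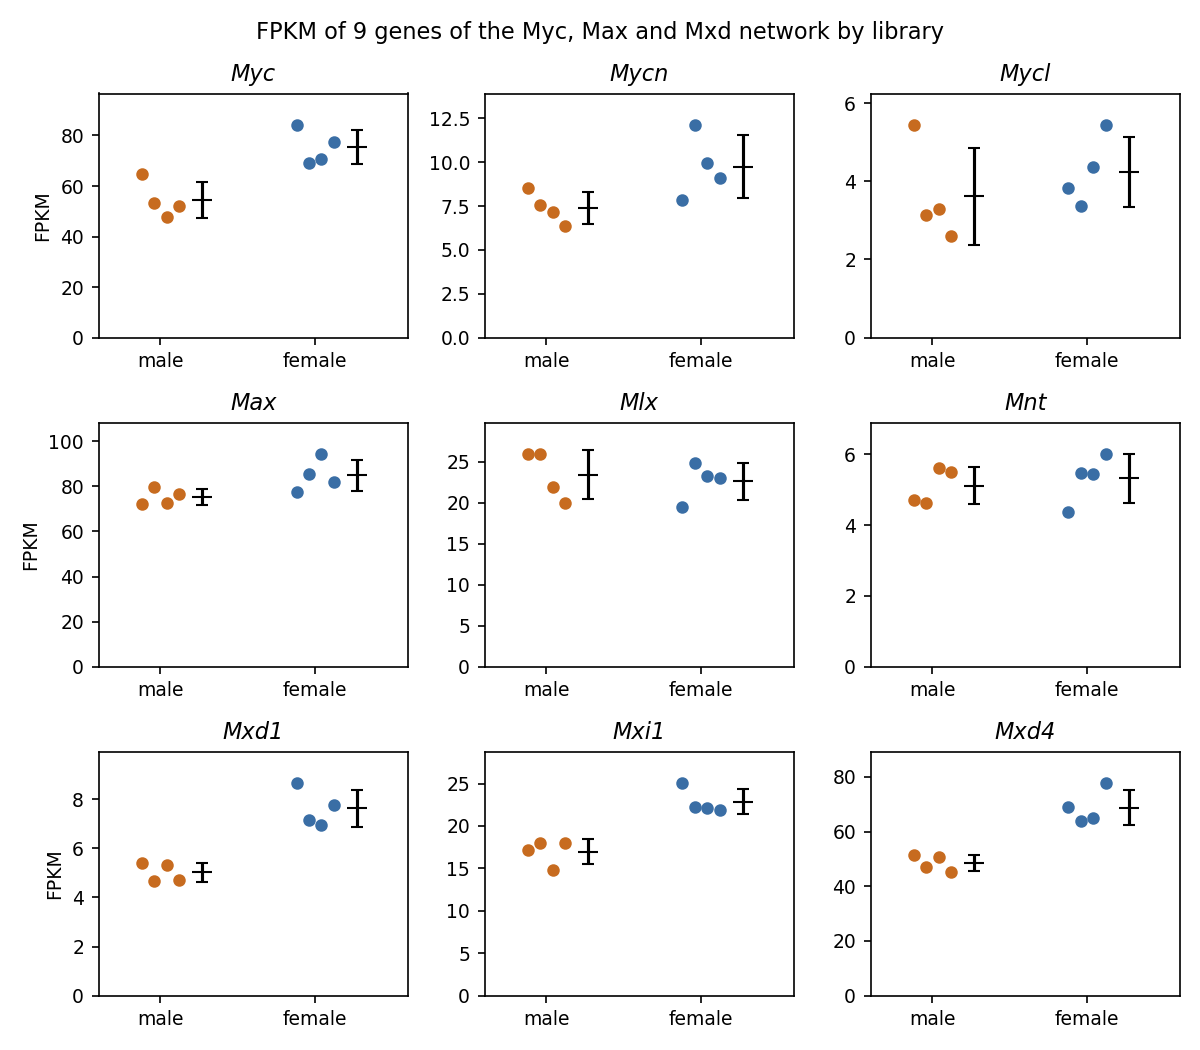
FPKM (y axes, linear, from 0) of the 9 genes in male libraries (left of each panel) and female libraries (right). Points are libraries in the order 1 to 4, and bars are the group mean with 1 SD (n = 4). For Myc, Mxd1, Mxi1 and Mxd4 all 4 male points lie under all 4 female points, and for the other 5 genes the groups overlap.

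Myc and its antagonists Mxd1, Mxi1 and Mxd4 were all lower in male cultures, by amounts that resembled each other. They were the 4 members called by limma (Benjamini-Hochberg adjusted p under 0.05 across the whole set of tested genes). All 4 were higher in female cultures, and 0 members were called higher in male cultures. At an unadjusted limma p under 0.05, 0 members lay towards male and 6 towards female cultures. No share over all tested genes was counted at that unadjusted threshold, here or for the lists below. Over all tested genes 2.89% were called towards female and 3.14% towards male cultures, or 6.04% in either direction, and because the list was put forward with this contrast known, nothing is read from the members' share. The same 4 were the members whose libraries did not overlap between the sexes, with all female values higher, a pattern found in 6.77% of tested genes, beside 7.26% with all male values higher and 14.0% in all. The median log2 difference over the 9 members was -0.35, beside -0.0038 over all tested genes. All differences are on the log2(FPKM + 1) scale and have female values subtracted from male ones, and this scale understates changes of low genes.

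Among the Myc paralogues, Myc itself carried most of the RNA. Myc (ENSRNOG00000004500) had 64.6, 53.1, 47.8 and 52.0 FPKM in the male libraries 1 to 4, against 84.0, 69.3, 70.6 and 77.4 FPKM in the female libraries 1 to 4. The highest male library, male 1, was under the lowest female library, female 2, by less than the spread within either sex. The means were 54.4 ± 7.19 FPKM in male and 75.3 ± 6.80 FPKM in female cultures (SD, n = 4 each), a log2 difference of -0.47 ± 0.10 (SE, limma adjusted p = 0.0209). Leaving out male 2, male 3, male 4, female 1 or female 4 ended this call (adjusted p at most 0.0678), as did a covariate for relative depth (adjusted p = 0.0558). Without both male 1 and female 3 the difference was -0.58 (adjusted p = 0.00625).

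Mycn, the paralogue best known from neural progenitors, had 8.54, 7.58, 7.16 and 6.34 FPKM in the male libraries 1 to 4, against 7.85, 12.1, 9.96 and 9.08 FPKM in the female libraries 1 to 4. Female 1 lay below male 1, so the groups overlapped, and Mycn was not called (7.40 ± 0.913 against 9.75 ± 1.79 FPKM in male and female cultures, log2 difference -0.35 ± 0.14, adjusted p = 0.192). Mycl, the third paralogue, ranged from 2.60 to 5.43 FPKM in male and from 3.36 to 5.43 FPKM in female libraries. The highest male value, in male 1, and the highest female value, in female 4, were nearly equal, and Mycl was not called (log2 difference -0.20 ± 0.20, adjusted p = 0.621). Myc made up 83.2 ± 1.51% of the summed paralogue FPKM in male and 84.2 ± 2.59% in female cultures, and Mycn 11.4 ± 0.871% and 11.0 ± 2.61% in male and female cultures. The make-up of the Myc paralogues thus differed by less than its spread between libraries.

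Max, the obligate partner, had 72.0, 79.9, 72.8 and 76.5 FPKM in the male libraries 1 to 4, against 77.6, 85.5, 94.2 and 82.2 FPKM in the female libraries 1 to 4. Male 2 was above female 1, and the groups overlapped. Max was not called (75.3 ± 3.65 against 84.9 ± 7.01 FPKM in male and female cultures, log2 difference -0.17 ± 0.07, adjusted p = 0.222). Its spread within a sex was smaller than that of most genes, at the 12.1 percentile of tested genes on the log2 scale. Max per Myc was 1.40 ± 0.194 in male and 1.14 ± 0.182 in female cultures, with overlapping libraries. In female 1 Myc exceeded Max (a ratio of 0.924), which no other library showed. Mlx, the partner of MondoA and ChREBP, had 25.9, 25.9, 21.9 and 20.0 FPKM in the male libraries 1 to 4, against 19.5, 24.8, 23.3 and 23.0 FPKM in the female libraries 1 to 4. The sexes were interleaved (log2 difference 0.04 ± 0.11, adjusted p = 0.868), and the sign turned when single libraries were left out.

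Of the antagonists, Mxd4 was the most abundant and had the call that held most often. Mxd4 (ENSRNOG00000015033) had 51.4, 47.1, 50.8 and 45.2 FPKM in the male libraries 1 to 4, against 68.9, 63.9, 64.8 and 77.6 FPKM in the female libraries 1 to 4. The lowest female library was above the highest male library by more than the SD of either sex. The means were 48.6 ± 2.95 FPKM in male and 68.8 ± 6.28 FPKM in female cultures (log2 difference -0.49 ± 0.08, limma adjusted p = 0.00661). Mxd4 kept its call in all 8 fits that leave out 1 library, with adjusted p from 0.00778 to 0.0279.

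Mxi1, which can be induced by hypoxia and whose protein represses Myc targets, had 17.2, 18.0, 14.8 and 18.0 FPKM in the male libraries 1 to 4, against 25.0, 22.3, 22.1 and 21.9 FPKM in the female libraries 1 to 4. Female 1 was apart from the other female libraries, and male 3 was the lowest of all. The means were 17.0 ± 1.50 FPKM in male and 22.8 ± 1.46 FPKM in female cultures (log2 difference -0.41 ± 0.09, adjusted p = 0.0276). Mxd1, the first Mxd factor described and a gene of terminal differentiation, had 5.39, 4.67, 5.33 and 4.72 FPKM in the male libraries 1 to 4, against 8.64, 7.16, 6.96 and 7.78 FPKM in the female libraries 1 to 4. It had the largest female excess of the 9 members, 1.52-fold by mean FPKM (5.03 ± 0.388 against 7.63 ± 0.757 FPKM in male and female cultures, log2 difference -0.52 ± 0.12, adjusted p = 0.0307). For both Mxi1 and Mxd1, leaving out male 2, male 3, male 4, female 1, female 2 or female 4 ended the call (adjusted p at most 0.0839 for Mxi1 and 0.0932 for Mxd1), as did a covariate for relative depth (adjusted p = 0.085 for both). Without both male 1 and female 3, Mxd1 was called (adjusted p = 0.0403) and Mxi1 was not (adjusted p = 0.0532).

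Mnt, the antagonist that is expressed in dividing and resting cells alike, did not follow the other antagonists. It had 4.71, 4.63, 5.63 and 5.50 FPKM in the male libraries 1 to 4, against 4.36, 5.48, 5.46 and 6.002 FPKM in the female libraries 1 to 4. The lowest and the highest of these 8 values were both female, and the log2 difference of -0.05 ± 0.14 was not called (adjusted p = 0.887). Its sign turned without female 4 (0.0048).

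Summed RNA of the Myc paralogues and of the antagonists was lower in male cultures for both, and the ratio of the sums was similar in the sexes. The summed FPKM of Myc, Mycn and Mycl was 65.4 ± 9.07 in male and 89.3 ± 5.41 in female cultures. The summed FPKM of Mxd1, Mxi1, Mxd4 and Mnt was 75.8 ± 2.35 in male and 105 ± 6.90 in female cultures. Neither sum overlapped between the sexes, with the highest male library at 78.6 and the lowest female library at 84.7 FPKM for the Myc sum. The ratio of antagonists to Myc paralogues was 1.002, 1.17, 1.31 and 1.21 in male 1 to male 4, and 1.12, 1.17, 1.17 and 1.23 in female 1 to female 4. Its mean was 1.17 ± 0.130 in male and 1.17 ± 0.0472 in female cultures, and the female values all fell inside the male range. Mxd4 supplied 64.2 ± 2.11% of the antagonist sum in male and 65.7 ± 1.89% in female cultures, and Mxi1 22.5 ± 2.38% and 21.9 ± 1.77% in male and female cultures. Mxd3 is left out of these sums. They are sums of RNA, and the proteins and their dimers were not measured.

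**Figure D2:**
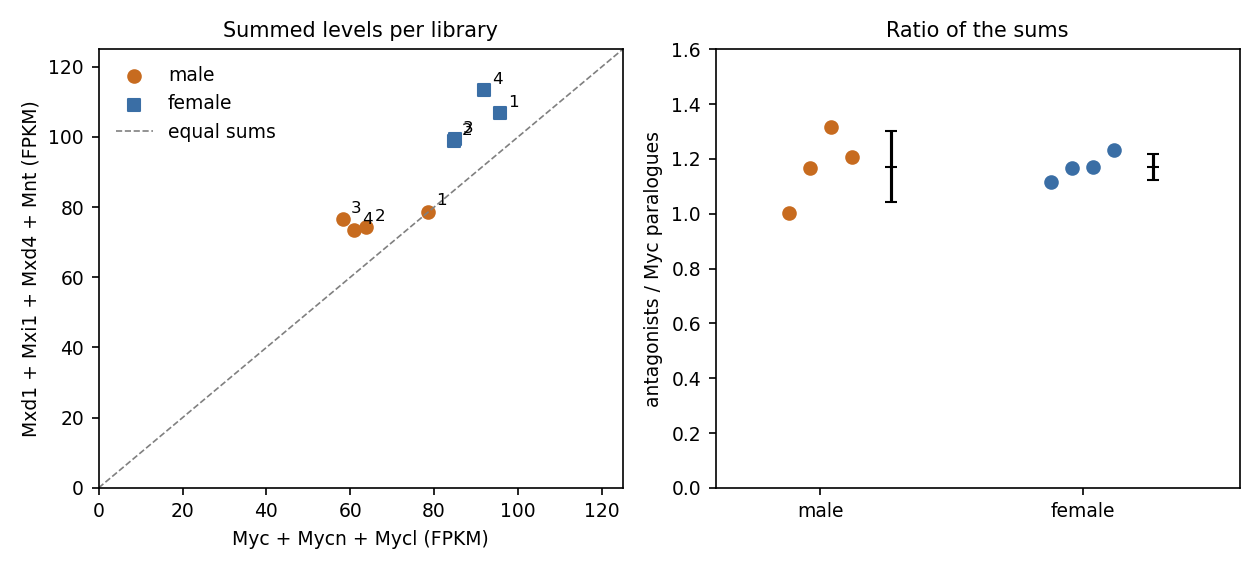
Left, summed FPKM of the 3 Myc paralogues (x axis) against that of Mxd1, Mxi1, Mxd4 and Mnt (y axis), each point a library with its number, male as circles and female as squares, with a dashed line of equal sums. Right, the ratio of the sums by sex with mean and 1 SD (n = 4). Both sums are lower in all 4 male libraries, and the ratio has a mean of 1.17 in each sex.

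The profiles of Myc, Mxd1, Mxi1 and Mxd4 over the 8 libraries also resembled each other within the table. Likeness was measured as the root mean square difference between log2(FPKM + 1) profiles, each centred on its own mean over the 8 libraries. From Myc, Mxd1 was at 0.112, Mxi1 at 0.118 and Mxd4 at 0.128, which are ranks 70, 94 and 128 of 11262 other tested genes, whose median distance was 0.329. Max (rank 1934), Mycn (rank 1811) and Mycl (rank 1971) were farther away, and Mnt (rank 5042) and Mlx (rank 5092) were near the middle. Mxd1 was the sixth nearest gene to Mxd4, with a distance of 0.0814. A shared difference between the sexes, which the list was put forward on, brings such profiles together, so these ranks are no separate evidence.

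**Figure D3:**
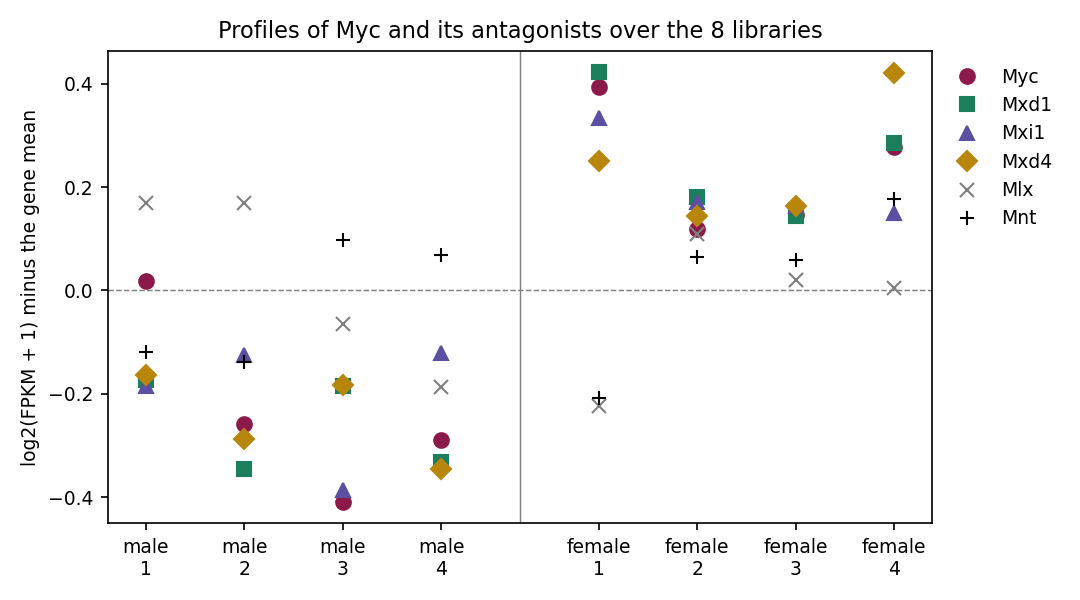
log2(FPKM + 1) minus the mean of each gene over the 8 libraries (y axis) for Myc, Mxd1, Mxi1, Mxd4, Mlx and Mnt in each library (x axis, male left, female right). Myc, Mxd1, Mxi1 and Mxd4 lie above their mean in every female library and, but for Myc in male 1, below it in every male library, while Mlx and Mnt cross it in both sexes.

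The genes nearest to Myc were Bckdha (0.0548), a subunit of the branched-chain keto acid dehydrogenase, Omg (0.0611), a glycoprotein of the myelin and OPC surface, Os9 (0.0621), a lectin of endoplasmic reticulum quality control, Phldb1 (0.0637) and Gas6 (0.0646), a ligand of the TAM receptor kinases. Cyfip2 and Tspan2 were among the 5 nearest to both Mxd1 (0.0545 and 0.0682) and Mxd4 (0.0654 and 0.0589), as was Sez6l (0.0681 and 0.0806). Phyhipl and Sfrp2 completed the list for Mxd1, and Eif2a and Glcci1 that for Mxd4. For Mxi1 they were Man1a1 (0.0499), Dvl3, Tpp1, Fam222b and Abtb2. Each of these genes had a lower mean in male than in female cultures, as Omg with a log2 difference of -0.48 and Tspan2 with -0.53.

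Promoter sequences are shown for the antagonists that were lower together in male cultures, with Max for comparison, since Max dimers bind the E-box. They come from RefSeq (build GRCr8), run from 250 bases before to 50 bases after the start site, and were matched by symbol for 7 of the 9 genes. No promoter was matched for Myc or Mycn, so neither was searched. Capitals mark CACGTG, which reads the same on both strands and was the only motif searched.
Mxd4, chr14:80786531-80786830, plus strand: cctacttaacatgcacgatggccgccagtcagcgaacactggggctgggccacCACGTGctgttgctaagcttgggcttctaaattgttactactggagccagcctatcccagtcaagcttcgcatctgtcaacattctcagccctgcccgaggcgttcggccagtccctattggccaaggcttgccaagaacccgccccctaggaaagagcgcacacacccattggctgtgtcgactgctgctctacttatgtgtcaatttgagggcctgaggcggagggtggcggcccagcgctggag
Mxd1, chr4:120675080-120675379, minus strand: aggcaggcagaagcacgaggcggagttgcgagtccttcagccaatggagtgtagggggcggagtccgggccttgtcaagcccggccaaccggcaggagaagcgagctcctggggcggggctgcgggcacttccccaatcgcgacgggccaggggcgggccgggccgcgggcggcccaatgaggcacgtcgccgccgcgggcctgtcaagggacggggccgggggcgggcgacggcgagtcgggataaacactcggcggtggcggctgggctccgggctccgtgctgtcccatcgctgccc
Mxi1, chr1:262348392-262348691, plus strand: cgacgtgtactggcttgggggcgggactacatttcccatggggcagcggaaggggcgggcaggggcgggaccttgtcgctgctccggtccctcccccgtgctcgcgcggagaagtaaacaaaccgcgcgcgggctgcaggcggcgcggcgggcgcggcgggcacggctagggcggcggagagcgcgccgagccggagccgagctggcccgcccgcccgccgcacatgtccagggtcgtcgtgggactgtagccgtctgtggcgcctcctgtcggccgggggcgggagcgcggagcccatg
Max, chr6:101395241-101395540, minus strand: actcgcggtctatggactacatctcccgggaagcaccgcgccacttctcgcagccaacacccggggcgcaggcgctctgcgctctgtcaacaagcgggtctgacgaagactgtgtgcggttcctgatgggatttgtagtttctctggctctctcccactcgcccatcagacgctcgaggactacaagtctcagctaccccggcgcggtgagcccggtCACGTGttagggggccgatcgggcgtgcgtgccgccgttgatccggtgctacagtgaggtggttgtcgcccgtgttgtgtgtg
Mxd4 held CACGTG 197 bases before its start site and Max 33 bases before it, while the windows of Mxd1 and Mxi1 held none. Mnt and Mlx, whose levels overlapped between the sexes, also held it, 123 and 70 bases before the start site, and Mycl did not. CACGTG was thus in 4 of 7 member promoters, against 6.42% of the 33469 promoters of this length and 9.34% of the 9211 that belong to tested genes. Of the 7 members searched, those with and without it lay both among the genes called lower in male cultures and among those not called. A match in such a window is a description of its letters and not a binding site.

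The wider network was low in both sexes, and no gene of it was called. Mlxip, the gene of MondoA, averaged 4.39 ± 0.887 FPKM in male and 4.41 ± 0.454 FPKM in female cultures (adjusted p = 0.966). Mga, a large scaffold that also pairs with Max, averaged 4.27 ± 0.742 and 4.61 ± 0.892 FPKM in male and female cultures (adjusted p = 0.82). Mlxipl, the gene of ChREBP, did not reach the filter and was listed at 0 in 5 of 8 libraries. Of 19 cofactors through which Myc or Mxd proteins act, 0 were called by limma in either direction, beside 6.04% of all tested genes. At an unadjusted p under 0.05, none lay towards male and 2 towards female cultures (median log2 difference -0.019). These 2 were Trrap, a scaffold of histone acetyltransferase complexes, at 8.06 ± 0.965 against 11.3 ± 2.004 FPKM in male and female cultures (adjusted p = 0.0965), and Bin1, a Myc-interacting adaptor, at 49.1 ± 7.88 against 61.8 ± 4.46 FPKM (adjusted p = 0.0939). Zbtb17, the gene of Miz-1, through which Myc represses genes, averaged 7.94 ± 0.995 and 8.35 ± 0.968 FPKM in male and female cultures. Wdr5, which helps Myc to bind chromatin, averaged 15.1 ± 0.867 and 14.2 ± 0.633 FPKM in male and female cultures.

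Among 14 tested genes that control how long the Myc protein lasts, 1 was called higher in male cultures and none in female ones. Over all tested genes 3.14% and 2.89% were called in these directions, and nothing is read from the counts of this list. At an unadjusted limma p under 0.05, 4 lay towards male and 1 towards female cultures. The called gene was Skp2, a ubiquitin ligase subunit of Myc and of the inhibitor p27 that is itself induced at S phase. It was at 23.7 ± 2.28 against 16.9 ± 1.75 FPKM in male and female cultures (log2 difference 0.46 ± 0.10, adjusted p = 0.0263). Leaving out male 2, male 3, male 4, female 1, female 2 or female 4 ended the call (adjusted p at most 0.0882). Fbxw7, the ligase that recognises phosphorylated Myc, was not called (6.87 ± 1.37 against 5.99 ± 2.52 FPKM in male and female cultures, adjusted p = 0.654). RNA levels say nothing of the Myc protein itself, which was not measured.

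No target gene of the lists of nucleolar and of metabolic targets was called lower in male cultures. Over all tested genes 2.89% were called in that direction, so few calls would fall in lists of 36 and 35 genes. Nothing is read from their absence. Of 36 tested genes of the nucleolus and ribosome assembly, 0 were called by limma, and 6 lay towards male and 2 towards female cultures at an unadjusted p under 0.05. Their median log2 difference was 0.034, with 22 positive and 14 negative values. Ncl, the gene of nucleolin, averaged 312 ± 9.42 FPKM in male and 298 ± 7.95 FPKM in female cultures (adjusted p = 0.522). Npm1, the gene of nucleophosmin, averaged 626 ± 28.6 and 695 ± 36.3 FPKM in male and female cultures (adjusted p = 0.179), and Nop56, a core protein of box C/D particles, 68.7 ± 6.03 and 63.6 ± 4.65 FPKM (adjusted p = 0.506). Nhp2, of the same list, was listed at 0 in all libraries. CACGTG was in 11 of 34 promoters of this list, or 32.4%, beside 9.34% of the promoters of tested genes. The share was 19.4% of 31 promoters for metabolic and growth targets and 11.1% of 9 for genes repressed by Myc. It was 7.69% of 13 for genes of Myc stability and 5.88% of 17 for cofactors.

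Of 35 tested metabolic and growth targets 7 were called higher in male and none in female cultures. Log2 differences were positive for 28 and negative for 7, with a median of 0.16. Towards male cultures 3.14% of all tested genes were called. The list was chosen with earlier results of these data known, and nothing is read from its counts. At an unadjusted limma p under 0.05, 15 lay towards male and 2 towards female cultures. All male values were higher for 11 genes and all female values for 2, beside 7.26% and 6.77% of all tested genes. Odc1, the rate-limiting enzyme of polyamine synthesis and a classic Myc target, had 261, 268, 257 and 245 FPKM in the male libraries 1 to 4, against 189, 219, 222 and 192 FPKM in the female libraries 1 to 4. All male libraries were above all female ones (258 ± 9.57 against 205 ± 17.2 FPKM in male and female cultures, log2 difference 0.33 ± 0.07, adjusted p = 0.0204). Mthfd2, an enzyme of mitochondrial one-carbon metabolism, differed most (22.7 ± 4.55 against 13.5 ± 1.76 FPKM in male and female cultures, 0.70 ± 0.14, adjusted p = 0.0157). Umps, of pyrimidine synthesis (0.38 ± 0.08), Prps2, of nucleotide precursor synthesis (0.41 ± 0.09), and Ldha, the lactate dehydrogenase subunit gene (0.26 ± 0.06), were also higher in male cultures. Shmt1 and Shmt2, the serine hydroxymethyltransferase genes, made up the remaining called genes. Cad, of pyrimidine synthesis, was not called (12.4 ± 1.29 against 13.4 ± 0.913 FPKM in male and female cultures, adjusted p = 0.607), and Srm was listed at 0 in 6 libraries. The count of 7 dropped to 1 without male 2 or female 4, to 2 without male 3 or male 4, to 2 under a covariate for depth, to 3 without female 1 and to 4 without female 2, and was 10 without both male 1 and female 3.

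Of 10 tested genes known to be repressed by Myc, 1 was called higher and 1 lower in male cultures, and 8 were not called. Log2 differences were positive for 7 and negative for 3, with a median of 0.14. Among all tested genes 3.14% were called higher and 2.89% lower in male cultures, and nothing is read from the counts of this list. Cdkn1a, the gene of the cell cycle inhibitor p21 and also a target of p53, had 238, 263, 251 and 218 FPKM in the male libraries 1 to 4, against 133, 155, 175 and 136 FPKM in the female libraries 1 to 4. The groups were far apart (242 ± 19.3 against 150 ± 19.1 FPKM in male and female cultures, log2 difference 0.69 ± 0.09, adjusted p = 0.00252). Ndrg2, a growth-restraining gene also known from astrocytes, was lower in male cultures (3.58 ± 1.47 against 8.37 ± 0.515 FPKM in male and female cultures, -1.09 ± 0.21, adjusted p = 0.0122). Both calls held in all 8 fits that leave out 1 library. Ndrg1 was not called (1.86 ± 0.277 against 1.62 ± 1.10 FPKM in male and female cultures, adjusted p = 0.714).

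**Figure D4:**
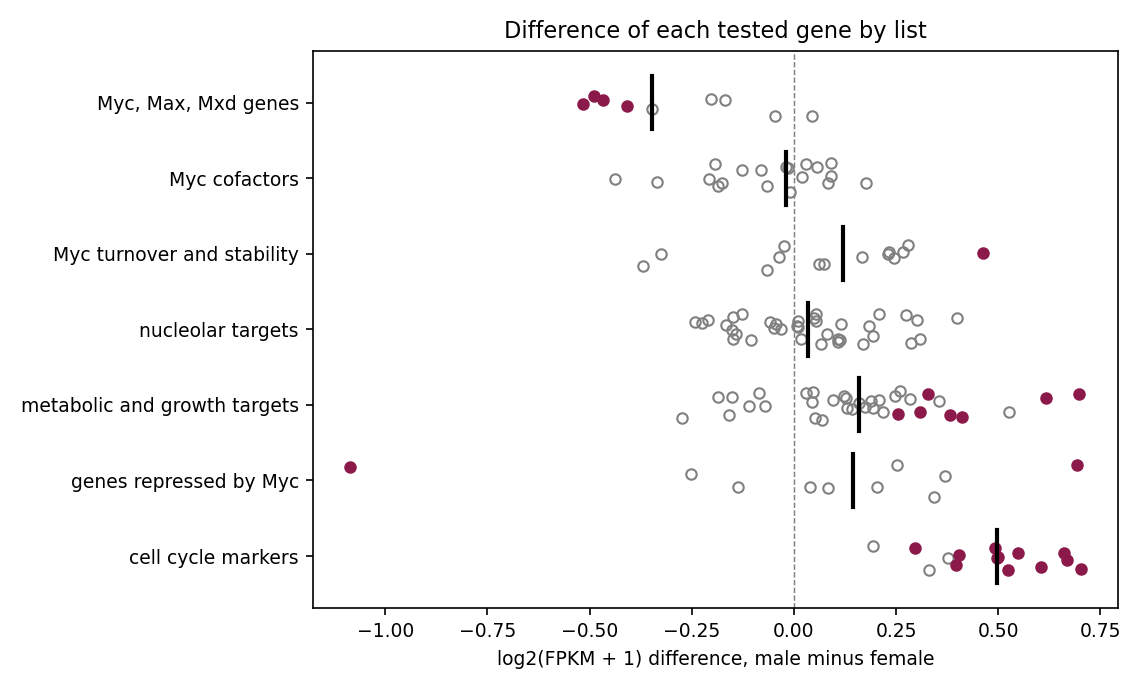
log2(FPKM + 1) difference, male minus female (x axis), of every tested gene of 7 lists (rows). Filled points passed limma's adjusted p of 0.05, open points did not, and vertical bars are list medians, from -0.35 for the Myc, Max and Mxd genes to 0.16 for metabolic and growth targets and 0.496 for cell cycle markers.

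Other marker groups differed between the same cultures. Their lists were also chosen with earlier results of these data known, so their counts are descriptions. Of 15 tested cell cycle markers 12 were called higher in male cultures and none in female ones. Towards male cultures 3.14% of all tested genes were called. All 15 log2 differences were positive, with a median of 0.496. The count of 12 was 7 without male 2, without male 3 or without female 4, and 7 without trend and robust moderation. Their summed level was 1459 to 1596 FPKM in male and 994 to 1276 FPKM in female libraries. Of 14 tested microglia markers 11 were called lower in male cultures, a direction in which 2.89% of all tested genes were called. All 14 log2 differences were negative (median -1.53). The sums of these markers were 47.1 to 64.7 FPKM in male and 180 to 225 FPKM in female libraries. Cd74 was listed at 0 in all male libraries and in female 1 and female 2, and had 0.593 and 0.723 FPKM in female 3 and female 4. OPC markers were called lower in male cultures for 5 of 9 genes, and all 9 log2 differences were negative (median -0.39). Their sums were 2091 to 2221 FPKM in male and 2531 to 2810 FPKM in female libraries. The count of 5 was 2 without male 2, male 3, male 4, female 1 or female 4, 3 without female 2, and 9 without both male 1 and female 3. It was also 2 under a covariate for depth, without a filter on low values or without trend and robust moderation, and 3 under a replicate block. Differentiating oligodendrocyte markers were called lower in male cultures for 3 of 10 genes (median -0.10). Their log2 differences were mixed, negative for 6 genes and positive for 4. Their sums were 677 to 823 FPKM in male and 929 to 1114 FPKM in female libraries. Neuron markers were called higher in male cultures for 4 of 11 genes (median 0.30), but log2 differences were positive for 6 and negative for 5. Their sums overlapped, with 347 to 385 FPKM in male and 320 to 446 FPKM in female libraries. Slc17a7 was listed at 0 throughout. With 1 library left out, the counts of called microglia, neuron and differentiating oligodendrocyte markers stayed at 10 to 12, 3 to 5 and 3. These marker counts with libraries left out were added after seeing the data. Astrocyte markers had 0 of 8 called by limma (1 higher in male and 3 in female cultures at an unadjusted p under 0.05), with sums of 225 to 247 FPKM in male and 225 to 254 FPKM in female libraries, and 1 was called lower in male cultures without male 1. In bulk RNA, fewer cells of a type and less RNA per cell cannot be told apart, and the part of these cell types and of the cell cycle in the levels of Myc, Mxd1, Mxi1 and Mxd4 was not tested.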

How the data were processed

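RNA of 8 libraries, 4 male and 4 female, was grouped by the sex and number in each title. Per the file headers the authors deposited FPKM values, 1 per gene and library. Per the labels' protocols the kit was strand-specific, and the submitters' processing notes name Trimmomatic and FastQC. For aligner, quantifier, build, annotation and use of strand, nothing is given in the sources used. FPKM holds no counts, so no counting interval could be given.

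Values were taken as log2(FPKM + 1). The 11263 genes averaging 1 FPKM or more were tested with limma 3.58.1 in R 4.3.3, with trend and robust moderation and Benjamini-Hochberg adjustment over all of them (threshold 0.05). The test was checked on simulated data. Relative depth was the mode of FPKM ratios to male 1 over genes under 0.3 FPKM. Members and gene lists were chosen with earlier results of these data known. Of the 203 entries written for 12 lists, 197 had a row; those without were Fbxl14, Cip2a, Axin1, Ccnb2, Itgam and Lhfpl3. Genes named are the members, a fixed set (Mlxip, Mlxipl, Mga, Ncl, Npm1, Nop56, Odc1, Cad, Srm, Ldha, Trrap, Zbtb17, Bin1, Fbxw7, Wdr5, Cdkn1a, Ndrg1), called list genes (the 4 of smallest p where over 5) and the 5 nearest profiles. Shmt1, Shmt2, Nhp2, Eif2s3y and the marker genes were named outside that rule. Figures were drawn with matplotlib 3.10.9.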

Additional observations from a re-analysis of the deposited data

Results flagged for a closer look

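Mxi1 in female 1 stood at 25.0 FPKM, apart from the other 3 female libraries, the nearest of which was at 22.3 FPKM. The gap was 0.886 of the range of the female libraries, above Dixon's 95% critical value for 4 samples. It was the only such case among 18 groups of libraries (9 genes in each sex), and chance gives about 1 in 20. Without female 1 the Mxi1 difference was -0.37 (limma adjusted p = 0.0746).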

How the results depend on the processing

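Mxd4 was called under every alternative run, and the log2 differences of Myc, Mxd1, Mxi1 and Mxd4 stayed negative under all of them. Members called higher in female cultures numbered 4 of 9, 1 with relative depth as a covariate, 2 with a replicate block, and 1 to 4 with 1 library left out. Myc was not called without trend and robust moderation (adjusted p = 0.0593). The difference of Mlx was -0.0058 under a depth covariate and ran from -0.023 to 0.11 with 1 library left out, negative without male 1, male 2 or female 1. That of Mnt ran from -0.12 to 0.0048 with 1 library left out, positive without female 4. Metabolic and growth targets higher in male cultures numbered 7, 3 without trend and robust moderation, 2 with relative depth as a covariate, 1 with a replicate block and 1 to 9 with 1 library left out, and those higher in female cultures numbered 0, 1 with a threshold of 0.1 or quantile normalization and 0 to 1 with 1 library left out. Nucleolar targets higher in male cultures numbered 0, 3 with a threshold of 0.1 and 1 with a mean of at least 5 FPKM or median ratio scaling. Those higher in female cultures numbered 0, and 1 with quantile normalization or relative depth as a covariate. Cofactors higher in female cultures numbered 0, 2 with a threshold of 0.1, 1 without male 1 and female 3 and 0 to 1 with 1 library left out. Genes of Myc stability higher in male cultures numbered 1, 0 without trend and robust moderation or with depth as a covariate, 2 without male 1 and female 3 and 0 to 3 with 1 library left out. All called genes numbered 680, 1149 with a threshold of 0.1, 424 without trend and robust moderation, 367 with relative depth as a covariate, 397 with a replicate block and 298 to 803 with 1 library left out. For the changes in the counts of members and targets the cause was not tested.

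Libraries of the same number did not deviate together (r of -0.11, 0.13, -0.15 and 0.069 for numbers 1 to 4), so the replicate block pairs libraries by number only. Mxd1 and Mxi1 lost their call under the replicate block (adjusted p = 0.0879 and 0.0741), and Myc and Mxd4 did not (0.0222 and 0.0341). Mycl had no value with a mean of at least 5 FPKM. Pseudocounts of 0.1 and 5 and the absence of a filter on low values ended no call of a member.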
